A study of Mus musculus with 108 samples.

Results

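The genes described here encode the protein components of the cytoplasmic ribosome. They were taken by symbol, as protein-coding rows whose symbol was Rpl or Rps followed by a digit, or Rpsa, Rplp0, Rplp1 or Rplp2, leaving out symbols with -ps and the Rps6k kinases. The rule found 86 members among 45195 gene rows. Of these, 77 were canonical ribosomal proteins, 46 of the large and 31 of the small subunit. A further 8 were paralogs (Rpl3l, Rpl7l1, Rpl10l, Rpl22l1, Rpl36al, Rpl39l, Rps27l and Rps27rt), and Rps19bp1 matched the rule although it encodes a protein that binds a ribosomal protein and is not itself part of the ribosome. Fau and Rack1 encode small-subunit proteins under other symbols and are described only as genes outside the rule.

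Each sample was 1 pancreatic acinar cell, the cell type that makes and secretes digestive enzymes, taken from untreated C57BL/6 male mice aged 12 weeks and made into a SMART-seq2 library without molecular identifiers. All cells formed 1 group with no contrast, and no animal, day or plate was named. The cells thus stand for 1 sample and not for replicates of it, and every SD, range and correlation below describes them without a test. Values are TPM, reads per transcript length scaled to a total of 1000000, so that levels of different genes can be set side by side. Read depth per cell is unknown. A median of 4156 genes per cell (2624 to 6946) reached 1 TPM, the level taken here as detected. In 21 cells, numbered 92 and above and called short-total cells, the deposited values summed to between 788380.5 and 990520.5. The other 87 are called full-total cells. Why some sums fall short is not stated. The labels say that some cells carried ERCC spike-ins, which are added control RNAs, but not which cells. Every cell expressed the whole list of 10 acinar markers, at a summed level of 302434 to 424167 TPM. Of the other cell types' marker lists, the summed level reached at most 20.7 TPM for ductal, 8.84 for endocrine, 61.3 for endothelial (in cell 40, with 4 of 5 markers), 18.3 for stellate or fibroblast and 4.83 for leukocyte markers. The median cell lay at 2.95 TPM for ductal markers and at 0 for the other lists. Values without cell 40 are among those given at the end.

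A ribosome holds 1 copy of nearly every one of these proteins, apart from the stalk of the large subunit, where Rplp1 and Rplp2 sit as dimers on Rplp0 and draw in the elongation factors. Proteins made in excess of ribosomal RNA are degraded, and their messages are known to be controlled together in translation through a run of pyrimidines at the very start of the message, the 5′ terminal oligopyrimidine tract. Acinar cells are known for a very high rate of protein synthesis. Mammalian genomes also carry many processed copies of ribosomal protein messages, most of them annotated as pseudogenes.

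The coding sequences of several members are shown because they bear on how far a value can be assigned to 1 gene. They are from the GENCODE M21 transcripts on GRCm38 (mm10), on the sense strand. Rpl41 had the highest mean of all members and has the shortest coding sequence, 78 bases, given in full. For Rpl5, Rpl12 and Rps12 the first 60 coding bases are given. The same 60 bases open the matching part of the processed copies Gm15500 (for Rpl5), Gm10275 (for Rpl12) and Rps12l1 (for Rps12), whose match to the whole coding sequence had 0 differing bases.
Rpl41: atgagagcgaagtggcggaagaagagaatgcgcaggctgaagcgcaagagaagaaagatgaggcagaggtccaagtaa
Rpl5: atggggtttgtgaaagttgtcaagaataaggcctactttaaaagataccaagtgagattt
Rpl12: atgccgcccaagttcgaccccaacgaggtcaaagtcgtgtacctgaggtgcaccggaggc
Rps12: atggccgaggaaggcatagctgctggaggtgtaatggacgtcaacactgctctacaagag

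In contrast, the paralogs Rps27l and Rpl36al differ from Rps27 and Rpl36a throughout, so that a read over a differing base separates the paralog from its partner. Such a base does not separate Rps27 from Rps27rt, or Rpl36a from its copy Rpl36a-ps2, which match over the whole coding sequence at 100% identity. The first 60 coding bases of each pair follow, with the bases at which the paralog differs in capitals. There are 18 such positions in Rps27l and 11 in Rpl36al.
Rps27: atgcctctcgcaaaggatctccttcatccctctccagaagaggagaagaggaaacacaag
Rps27l: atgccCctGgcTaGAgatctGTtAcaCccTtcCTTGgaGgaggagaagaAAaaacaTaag
Rpl36a: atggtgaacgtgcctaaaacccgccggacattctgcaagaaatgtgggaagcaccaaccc
Rpl36al: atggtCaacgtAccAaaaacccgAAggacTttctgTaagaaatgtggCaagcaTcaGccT

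The pyrimidine tract was looked for in RefSeq start windows of GRCm38.p6, 250 bases before to 50 bases from the annotated start, which matched 57 of the 77 canonical members (67 windows). In 19 of the 67 windows (28.4%) the base at the annotated start lay in an unbroken run of at least 6 C or T. The same held for 7.25% of all 32851 windows. The run could include bases before the annotated start, and annotated starts may lie off the true start. The 3 members with such a run and the highest mean TPM, and the 2 with the lowest, are shown as 30 bases, 15 before the annotated start and 15 from it, with the run in capitals. The run of Rpl27a is 20 bases long and goes on past the end of the bases shown. The windows lie at chr17:33955651-33955680 on the minus strand (Rps18), chr4:86857353-86857382 on the minus strand (Rps6), chr14:24490663-24490692 on the plus strand (Rps24), chr1:39367836-39367865 on the plus strand (Rpl31) and chr7:109519180-109519209 on the plus strand (Rpl27a).
Rps18: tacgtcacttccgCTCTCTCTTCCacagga
Rps6: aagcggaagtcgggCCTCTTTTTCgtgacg
Rps24: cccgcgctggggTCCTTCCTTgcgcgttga
Rpl31: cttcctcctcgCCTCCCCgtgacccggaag
Rpl27a: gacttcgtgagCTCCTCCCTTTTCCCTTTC

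Over the whole window and on either strand, CCGGAAG was found in 25 of 67 member windows (37.3%) against 8.86% of all, AAGATGGC in 7 (10.4%) against 2.75%, and GGGCGG in 41 (61.2%) against 35.7%. TATAAA between 20 and 40 bases before the start was found in 0 of 67, against 1.99% of all. These are matches of letters and not sites. The median of the mean levels was 113.8 TPM for the 19 members with a tract at the annotated start and 125.4 TPM for the 38 matched members without one, and their median correlations with the other members were 0.76 and 0.78. Among the others, Rpl17, Rpl21, Rpl23a, Rpl29, Rpl3, Rpl30, Rpl32, Rpl36, Rpl7, Rpl8, Rplp1, Rps14, Rps20, Rps27a and Rps29 had no window.

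Ribosomal protein messages were present in every cell. The 77 canonical members together took 1.12% ± 0.251 (SD over cells) of a total of 1000000 TPM, with a median of 1.12%, from 0.576% in cell 53 to 1.89% in cell 54. A list of 41 genes, called the enzymes here, filled a median of 88.6% of the TPM. It holds the digestive enzymes and some other acinar genes, such as Dmbt1, Gp2 and the protease inhibitor Spink1. With the enzymes left out of each cell's own total, the canonical members took 10.3% ± 2.39 of the rest, from 5.58% in cell 8 to 16.9% in cell 92. The cells at the ends of the range were thus not the same under the 2 totals. Cell 92, a short-total cell, was already highest on own totals with the enzymes kept in, at 1.90% beside 1.89% in cell 54. Cell 53 was again lowest there. Leaving out the enzymes raised the median tested gene by 2.51 on the log2 scale. Across all rows 1.78% were detected in every cell, and of the 77 canonical members 76 were. The exception was Rps12.

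Levels of single members ran from 5.13 TPM (Rpl5) to 588 TPM (Rpl41), a span of 115-fold around a median of 126.8 TPM, with quartiles at 87.7 and 171.9 TPM. Rpl41, a very short basic peptide of the large subunit, lay between 247 and 1207 TPM with a median of 571. Rpl32 lay between 134.5 and 1151 TPM with a median of 444, and Rplp1 of the stalk between 187 and 814 TPM with a median of 396. Those 3 large-subunit genes were the highest of all members. The small-subunit genes Rps29 (median 375 TPM, 152 to 735) and Rps28 (median 342, 126 to 668) followed. Rpl13 (median 309.9, 136 to 560.5 TPM), Rpl10 (median 251, 130.3 to 501 TPM), which joins the large subunit late in its assembly, and Rps18 (median 256, 84.2 to 470.3 TPM) made up the 8 highest means. Within the stalk, Rplp0 had a median of 246 TPM (102.8 to 389.7) and Rplp2 of 124 (21.7 to 282), so that the mean of Rplp1, 412 TPM, was above both. Rps27a, which is made as a fusion with ubiquitin, had a median of 172 TPM (60.6 to 301).

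At the low end was Rpl5, which with Rpl11 carries the 5S ribosomal RNA into the large subunit. Rpl5 had a median of 4.67 TPM (1.08 to 15.1), while Rpl11 had a median of 111.2 TPM (55.7 to 177), and the 2 ranges did not meet. With near-identical copies added, the means were 104.2 TPM for Rpl5 (49.5 to 206) and 131 TPM for Rpl11 (72.5 to 205), and the ranges overlapped. Rpl12 had a median of 9.72 TPM (1.4 to 24.1) and Rps12 of 6.69 TPM (0 to 81.4). Rpl27 (median 23.7, 5.96 to 58.3 TPM), Rpl27a (median 27.4, 10.4 to 58.6) and Rpl22 (median 32.6, 11.3 to 83.5) were next, followed by Rps20 (median 45.7, 16.96 to 103.1 TPM) and Rpl37 (median 53.7, 18.1 to 96.7 TPM). For Rpl5, Rpl12, Rps12 and Rpl27 a copy elsewhere in the genome carries the whole coding sequence without a differing base.

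Members of 1 part of the ribosome also differed in level. Rpl4 and Rpl39, which line the tunnel through which the new chain leaves, had medians of 169 TPM (91.96 to 284) and 63.97 TPM (14.4 to 122). Rpl23a and Rpl35 form the docking site for targeting factors at the tunnel's end, and had medians of 126.3 TPM (57.8 to 229.9) and 65.9 TPM (17.3 to 134.5). Rps2 and Rps3, at the channel where the message enters, had medians of 180.9 TPM (71.2 to 371) and 54.5 TPM (20.2 to 114). In each of these 3 pairs the first gene had the higher mean, and the ranges overlapped. With near-identical copies added, Rpl35 had a mean of 125.4 TPM and Rpl23a of 127.1, while the means of the other pairs moved by less than 2 TPM.

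**Figure D1:**
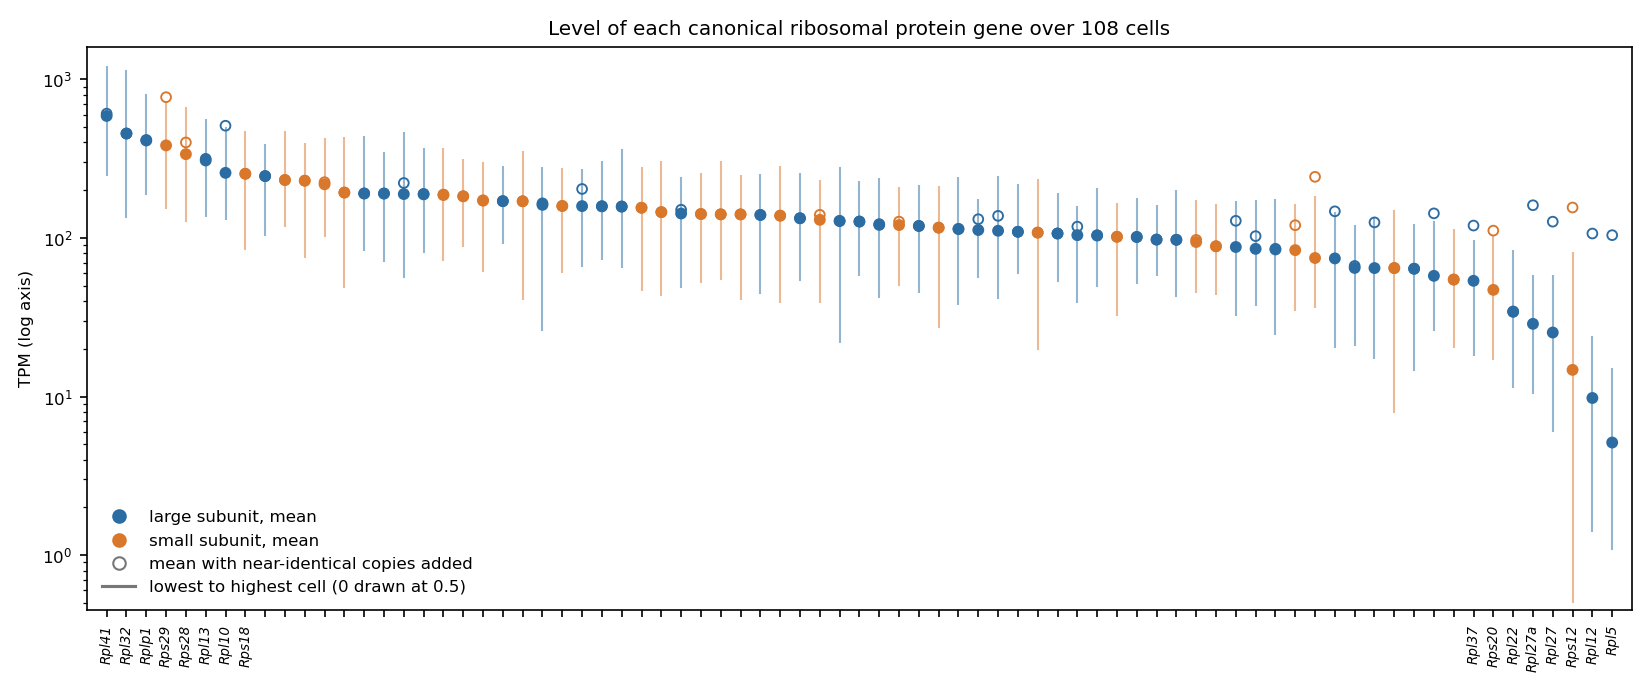
Mean TPM of each of the 77 canonical members over all cells (filled points, log axis), with the lowest and highest cell as a line (drawn from 0.5 TPM for Rps12, whose lowest value is 0) and the mean after adding near-identical copies as an open point. Blue marks the large and orange the small subunit, and names are given for the 8 highest and the 8 lowest means. The 5 members below 30 TPM (Rpl5, Rpl12, Rps12, Rpl27 and Rpl27a) all lie above 100 TPM with their copies added.

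Near-identical copies were defined as rows named after a member with -ps, or other annotated genes whose transcript matched at least 80% of a member's coding sequence at 95% identity or more. There were 557 such rows, 540 of them annotated as pseudogenes, and 219 were 0 in every cell. Only 37 had a mean of 1 TPM or more, and 14 of 50 TPM or more. Together they held 2105 ± 544 TPM per cell, or 15.3% ± 1.68 of the sum of members and copies. Where the coding sequences are identical, the share given to a member and to its copy rests on the bases outside the coding part and on how the counting tool divided shared reads, so the value of such a member alone is uncertain.

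For 10 canonical members the copies held 50% or more of the sum. Rpl5 had 95.1% of its sum in copies, nearly all in Gm15500, annotated as a transcribed processed pseudogene on chromosome 7 (114705217 to 114706235, GRCm38), which averaged 99.01 TPM. Rpl12 had 90.8%, mainly in Gm10275 on chromosome 10 (29698746 to 29699380), at a mean of 96.8 TPM. Rps12 had 90.5% in 23 copies, led by Rps12l1 at 98.7 TPM and Rps12-ps3 at 41.8 TPM. The shares were 82.1% for Rpl27a (Gm7536, 132 TPM), 80% for Rpl27 (Rpl27-ps3, 98.2 TPM) and 69.2% for Rps23 (Rps23-ps1, 168 TPM). For Rpl31, Rps20, Rpl37 and Rps29 they lay between 50.3% and 59.6%. Gm14303, a processed copy of Rps29, averaged 389 TPM, above Rps29 itself at 383 TPM, and Rpl10-ps3 averaged 252 TPM beside Rpl10 at 257 TPM.

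With copies added, the members lay closer together. The lowest mean became 34.4 TPM (Rpl22) and the highest 772 TPM (Rps29), a span of 22.4-fold. The SD of the log2 mean levels over members fell from 1.13 to 0.74, and 65 members lay within 2-fold of the members' median in place of 59. Rpl22 stayed low because its 2 copies averaged 0.179 TPM in sum. Rps3, Rpl39 and Rps15a had copies of 0 to 0.224 TPM and had summed means of 54.7, 63.99 and 64.7 TPM. Mean level had a Spearman correlation of -0.07 with coding length over the 77 members, of -0.17 with copies added, and of -0.33 with transcript length; members are not independent replicates, and these values are descriptions.

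The sums of the large and the small subunit moved nearly as 1 quantity across cells. The 46 large-subunit genes summed to 6540 ± 1422 TPM (3332 to 10949) and the 31 small-subunit genes to 4680 ± 1097 TPM (2214 to 8024). Over all cells the 2 sums had a Spearman correlation of 0.98 (Pearson 0.98), and also within the 87 full-total (0.97) and the 21 short-total cells (0.98). Both sums come from the same libraries and share each cell's fixed total. With the enzymes left out of the total the correlation was again 0.98. The large subunit held 58.4% ± 1.18 of the ribosomal protein TPM, from 55.6% in cell 99 to 61.6% in cell 53, and the log2 ratio of the sums was 0.49 ± 0.07.

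The sign of the subunit ratio depended on how a subunit was summarised. The sum over the large subunit was higher with 46 genes against 31, but the median small-subunit member was higher in level, at 138.7 ± 33.2 TPM per cell against 114.6 ± 25.8 TPM. The log2 ratio of the medians was -0.27 ± 0.13, and the difference of the mean log2 levels was -0.23 ± 0.10. With copies added the ratio of the medians was -0.14 ± 0.10. Of the 5 members under 30 TPM, 4 belong to the large subunit.

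**Figure D2:**
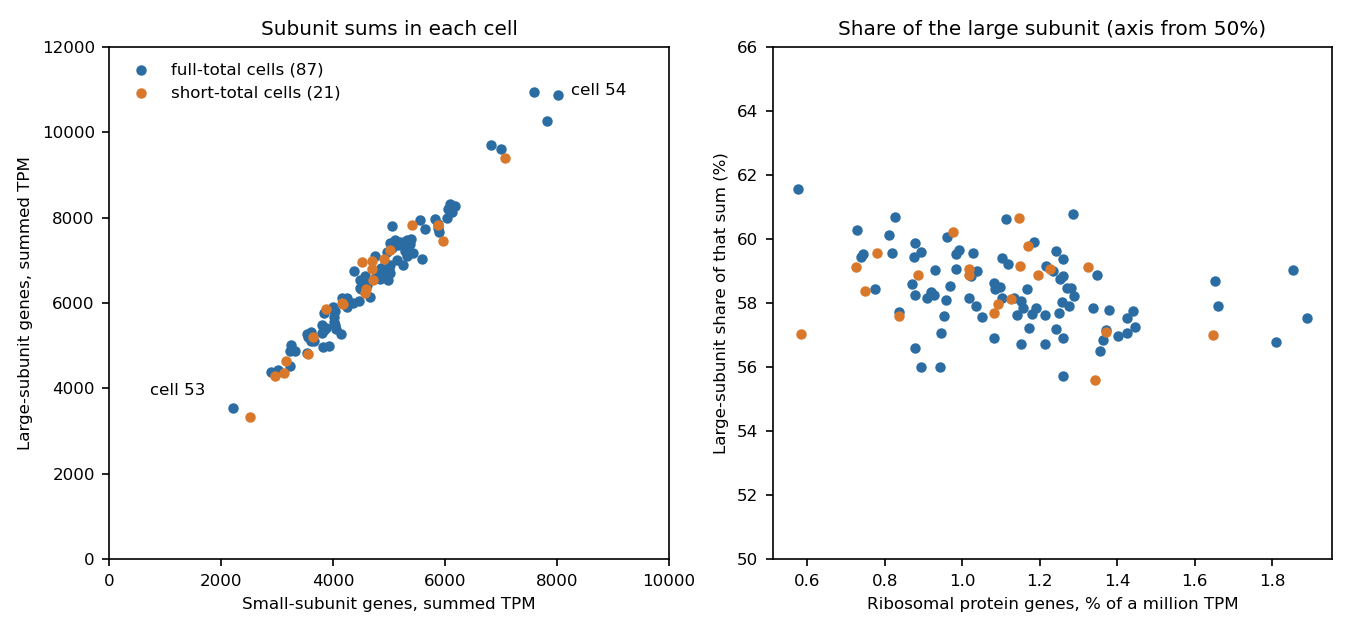
Left, summed TPM of the 46 large-subunit against the 31 small-subunit genes, 1 point per cell. Right, the large-subunit share of that sum against the share of 1000000 TPM held by all 77 genes, with an axis that starts at 50%. Full-total cells are blue and short-total cells orange, and both sets lie on 1 line at the left, with cell 53 near the low and cell 54 near the high end.

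Cells differed more in the total than in the make-up of the set. The share in cell 54 was 3.28 times that in cell 53. Between this pair of cells, chosen for their totals, 76 of 77 members were higher in cell 54, by a median of 3.51-fold, with the largest ratio for Rps15a at 15.1-fold. The exception was Rps12, at 0 TPM in cell 54. Cell 53 held the lowest value of 28 members and 1 short-total cell that of 23. The highest values were spread over more cells, with 17 members highest in cell 39, 16 in cell 54 and 11 in cell 92. The order of the members by level was nearly the same in all cells. A cell's Spearman correlation with the mean of the other cells was 0.95 ± 0.03, from 0.83 in that short-total cell to 0.98 in cell 14.

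The share held by the canonical members had Spearman correlations over all cells of -0.25 with the enzyme share, with which it shares a fixed total, and of 0.14 with the number of genes detected. Within full-total cells these were -0.35 and 0.15, and within short-total cells -0.02 and 0.08. With the enzymes left out of the total, the share had a correlation of -0.24 with the number of genes detected (-0.08 among full-total and -0.27 among short-total cells), so the sign depended on the total. Cells 31 and 40 each had 6 of 6 cell cycle genes detected (Mki67, Top2a, Ccnb1, Cdk1, Birc5 and Ccna2, with Cdk1 at 44.2 and 65.6 TPM), against at most 1 in any other cell. Cell 40 also had the most genes detected of all, 6946, and 4 of 5 endothelial markers, whose part was not tested. The 2 cells held 1.26% each, ranks 27 and 28 from the top, and took ranks 74 and 94 with the enzymes left out of the total. Cell 31 had the second-lowest large-to-small ratio (0.33), and cell 40 ranked 97 from the top (0.40). Neither cell lay at an end of the range of the share under either total.

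Spread between cells lay near the trend for the members' level, a trend that the members themselves help to set. The median coefficient of variation (CV) of the canonical members was 0.277, from 0.213 (Rpl4) to 1.26 (Rps12). Spread was set against level by a smooth trend of the squared CV on mean TPM over the 7227 genes detected in at least 10% of cells, and a gene was called variable at 2 times the trend or more. Of all tested genes 12.0% were called, and of the 77 canonical members 1 was, Rps12, at 9.52 times the trend. The next were Rps27 at 1.92 times, just under the limit, Rps28 at 1.89 and Rps15a at 1.63 times. Under the trend lay 37 of the 77 members, beside 50.0% of all tested genes. The 38 non-member genes with means between the members' quartiles had a median CV of 0.309, and the 39 canonical members in that range 0.27. Over the members CV had a Spearman correlation of -0.54 with coding length, so that short genes varied more.

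Rps28 was called variable at 2.19 times the trend with copies added, while Rps12 then was not, at 1.83 times. Rps27, Rps28 or both also passed in some of the other settings listed at the end. Rps28, a small protein near the exit channel of the small subunit, has a processed copy, Gm10443, of 62.2 TPM that was detected in 76 cells.

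**Figure D3:**
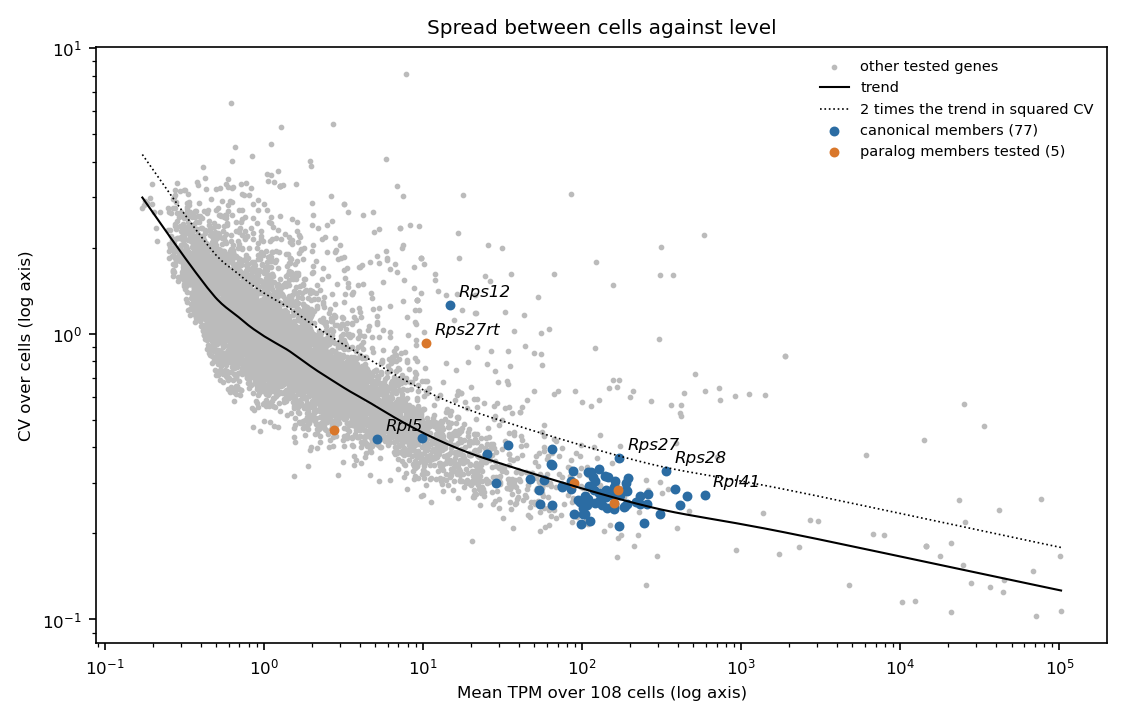
CV over all cells against mean TPM for the 7227 tested genes, both axes log, with the trend as a solid line and 2 times the trend in squared CV as a dotted line. Of the 77 canonical members (blue) only Rps12 lies above the dotted line in this setting, and of the 5 tested paralogs (orange) only Rps27rt.

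Rps12 stood apart from every other canonical member. It was detected in 67 cells (62.04%, exact Clopper-Pearson 95% interval 52.2% to 71.2%, counting error only), was 0 in 34 and reached 81.4 TPM in cell 18. Rps12-ps3, whose symbol marks it as a copy although its row is annotated as protein-coding, lay between 0 and 113.2 TPM with a median of 40.2 and was 0 in 5 cells. Rps12l1 lay between 27.2 and 224 TPM with a mean of 98.7 ± 40.4. Rps12 was the highest of the 3 in 2 cells and Rps12-ps3 in 3, and Rps12l1 was in every other cell.

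The sum of Rps12 and these copies lay close to the other members. It was detected in every cell, at a median of 149 TPM (60.2 to 319), with a CV of 0.360 in place of 1.26 and a Spearman correlation of 0.76 with the score of the other members in place of 0.11. Across cells Rps12 had a correlation of -0.37 with Rps12-ps3 and of -0.06 with Rps12l1. The coding sequences of the 3 are identical in letters over 399 bases, so reads within that stretch cannot be told apart.

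Members rose and fell together from cell to cell. Over the 2926 pairs of canonical members the median Spearman correlation was 0.61, with 10% of pairs under 0.44 and 10% above 0.73. The median was 0.60 within the large subunit, 0.64 within the small subunit and 0.62 between subunits. The first principal component held 62.7% of the variance and the next 4.26%. All values come from the same libraries with a fixed total per cell, and a part of the shared movement that comes from library quality or from that total was not tested.

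For each gene the correlation with a score, the mean over canonical members of the standardised log2 level, was taken, leaving a member out of its own score. Of all 7227 tested genes 1.51% reached a Spearman correlation of 0.5, and 0.282% of those that are neither members nor copies did. Of the 38 non-member genes with means between the members' quartiles 3 did, with a median of 0.17. Of the 39 canonical members in that range 39 did. Of the 77 canonical members 76 did, with a median of 0.78. Rps14, a small-subunit protein at the platform, was highest at 0.92. The lowest were Rps12 (0.11), Rpl5 (0.53), Rpl12 (0.54), Rpl27 (0.58) and Rpl38 (0.62). The first 4 of these are among the 10 members with 50% or more of their sum in copies. For those 10 the median correlation was 0.70 alone and 0.79 with copies added, and it was higher with copies for 8 of them, not for Rps29 or Rpl37, beside 48 of all 77 members. Rpl5 went from 0.53 to 0.79 and Rpl12 from 0.54 to 0.82.

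**Figure D4:**
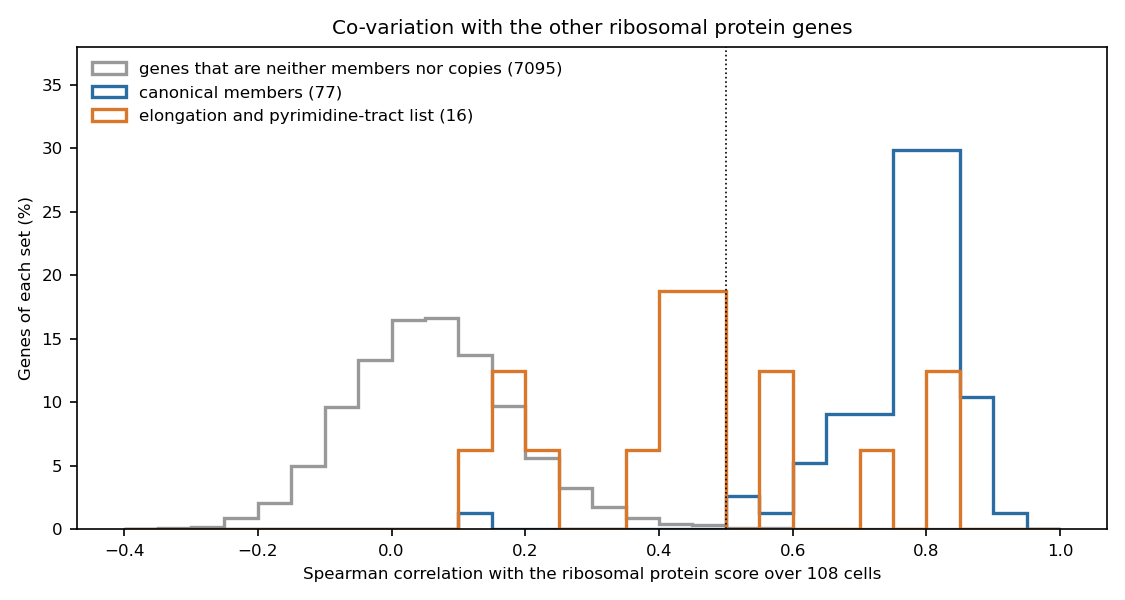
Distribution of the Spearman correlation with the ribosomal protein score over all cells, as a percentage of each set in bins of 0.05. Of the canonical members (blue, median 0.78) 76 of 77 lie at or above the dotted line at 0.5, while the genes that are neither members nor copies (grey) have a median of 0.06 and the 16 genes of the elongation and pyrimidine-tract list (orange) one of 0.44. The grey genes have a median level of 1.33 TPM, against 126.8 for the canonical members.

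Each member was also set against the median member of the same cell, which removes what a cell's members share. The SD over cells of this log2 ratio had a median of 0.24, against 0.40 for the log2 level itself, and it was smaller than the SD of the level for all 77 members. Rps18 (0.18), Rpl26 (0.18), Rps6 (0.19) and Rpsa (0.19) were among the members with the steadiest ratio. Rps6 is the member phosphorylated by the S6 kinases. Rps12 (2.24), Rpl12 (0.48), Rps15a (0.45), Rps27 (0.44) and Rpl5 (0.44) varied most. Pairs of these ratios had a median Spearman correlation of 0.02.

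Part of what remained was ordered by length. The first component of the ratios held 11.3% of their variance, and its loadings had a Spearman correlation of 0.78 with coding length over the 77 members. Rpl3, Rpl4 and Rplp0, with coding sequences of 1212, 1260 and 954 bases, stood at one end, and Rpl37a, Rpl41 and Rps21, with 279, 78 and 252 bases, at the other. The closest pairs of ratios were Rpl37a with Rpl41 (0.58) and with Rpl38 (0.58), and the most opposed pair was Rps2 with Rps21 (-0.51). Over cells this component had a Spearman correlation of 0.38 with the number of genes detected, 0.32 among full-total and -0.17 among short-total ones. With the share of the canonical members its correlation was -0.38, and -0.42 and -0.46 within the 2 sets. Whether RNA quality or amplification takes part in the ordering was not tested.

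Among the paralogs, 3 were as abundant as canonical members. Rpl22l1 lay between 23.2 and 157 TPM with a median of 82.6, and was above Rpl22 in every cell. It held 72.2% of the pair's sum, and the coding sequences of the pair share 68.2% of aligned bases. Rpl36al lay between 79.1 and 304 TPM with a median of 158, above Rpl36a (median 108.02, 41.3 to 245) in 100 cells. With near-identical copies added, Rpl36a had a median of 133 TPM (47.9 to 360), and the cells were not counted again. Rps27l, known as a target of p53, lay between 50.0 and 289 TPM with a median of 165, beside Rps27 with a median of 165 (40.5 to 352), and was the higher of the pair in 56 cells. Over cells the ranges of each paralog and its partner overlapped, but within each cell Rpl22l1 was above Rpl22, while neither Rps27l nor Rps27 was the higher throughout. These 3 paralogs had correlations of 0.71, 0.70 and 0.61 with the ribosomal protein score.

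The other paralogs were low or absent. Rpl7l1, which acts in ribosome assembly, averaged 2.74 TPM (median 2.69, 0 to 6.58) and was detected in 100 cells, with a correlation of 0.16. Rps27rt, a retrocopy with a coding sequence identical to that of Rps27 over all 255 bases, averaged 10.4 TPM (median 8.11, 0 to 45.6), and it was called variable at 4.36 times the trend. Rpl10l and Rpl39l, known from testis, were listed at 0 in every cell. Rpl3l, known from muscle, reached 0.65 TPM in 1 cell and 0 in the others. Rps19bp1, the member that is no ribosomal protein, averaged 2.05 TPM (median 1.54, 0 to 8.96) with a correlation of 0.21.

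**Figure D5:**
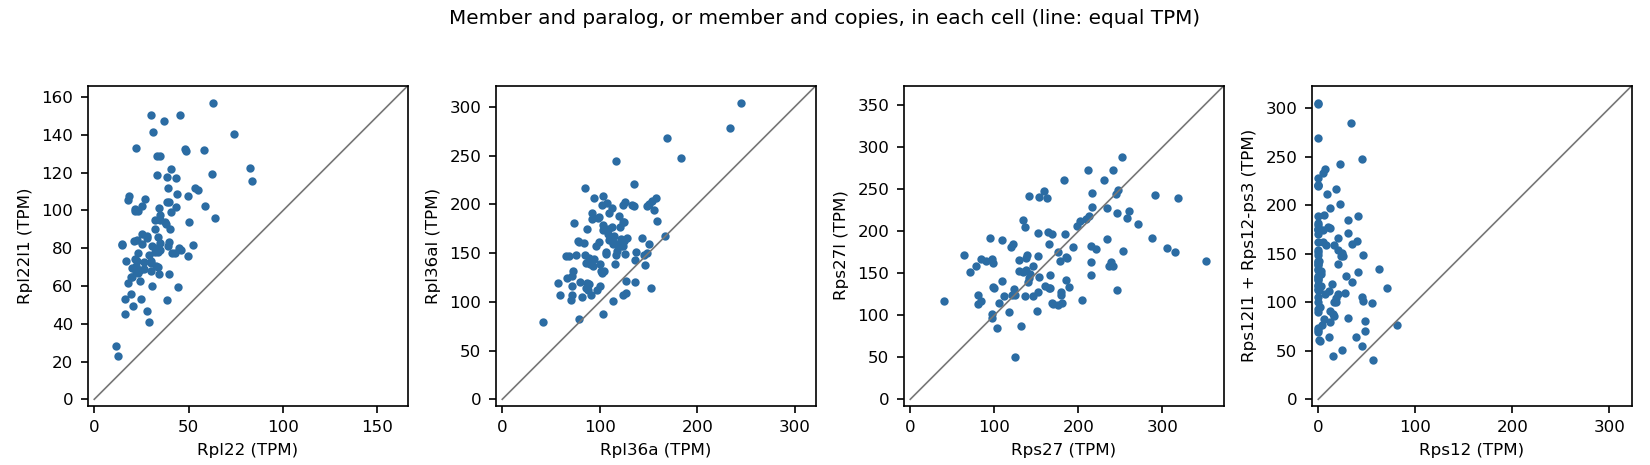
TPM of a member (horizontal) against its paralog or the sum of 2 copies (vertical) in each cell, with a line of equal TPM. Rpl22l1 lies above the line in every cell, Rpl36al in 100 and Rps27l in 56, and Rps12 is at 0 in 34 cells in which its copies Rps12l1 and Rps12-ps3 together are not.

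Genes outside the rule were ranked by their correlation with the score. Ranking covered the 5221 genes detected in at least 25% of cells that are neither members nor copies. Eef1b2, a subunit of the factor that reloads elongation factor 1A with GTP, led at 0.82 (median 108.15 TPM, 38.6 to 203). Naca, of the complex that shields new chains at the ribosome exit, followed at 0.81 (median 42.4 TPM, 20.6 to 73.2). Rack1 and Fau, ribosomal proteins under other symbols, came next. Rack1 was at 0.73 (median 65.1 TPM) and Fau at 0.73 (median 81.1 TPM), with Tpt1, whose message has a pyrimidine tract, at 0.72 (median 246 TPM). Gm26619, Nme2, Gm9843, Tpt1-ps3, Btf3 (the partner of Naca), Hint1, Eef1a1, Gstp1 and Nop10 were also among the 15 highest, from 0.67 to 0.55. The lowest 5 were Dmbt1 (-0.35), Eps8l2, Fgl2, Ewsr1 and the lipase Cel (-0.33).

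Lists of related genes were set beside the members. Of the 16 elongation factors and other genes whose messages are known to start with a pyrimidine tract, 5 reached a correlation of 0.5 (Eef1b2, Naca, Tpt1, Btf3 and Eef1a1), and the list's median was 0.44, against 0.06 over all tested genes. Of 28 tested genes of ribosome assembly 1 did, Nop10, with a median of 0.09 at a median level of 1.79 TPM. Of 77 mitochondrial ribosomal protein genes 0 did, with a median of 0.14 and a highest value of 0.45, and of 81 respiratory chain genes 2 did (Uqcrh and Cox8a), with a median of 0.30. The enzymes (40 tested, median -0.02), ER chaperones (21, 0.14), Reg genes (7, -0.12) and immediate-early genes (15, -0.07) had none at 0.5. Low genes are measured with more noise, and the mitochondrial list's median level was 4.44 TPM against 126.8 for the canonical members, so the lists differ in level as well as in correlation. Averaged into 1 score per list, the mitochondrial ribosomal proteins had a Spearman correlation of 0.49 with the ribosomal protein score (0.57 among full-total and 0.32 among short-total cells) and the respiratory chain one of 0.59 (0.63 and 0.58). All these scores share each cell's library and fixed total.

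How short-total and full-total cells compared in these genes depended on the total. The canonical members' share of 1000000 TPM averaged 1.07% ± 0.25 in short-total and 1.13% ± 0.25 in full-total cells. With the enzymes left out of each cell's own total, the share averaged 12.0% ± 2.60 in short-total and 9.90% ± 2.17 in full-total cells. Among full-total cells the share of 1000000 TPM was 1.19% ± 0.24 in the 47 numbered 1 to 48 and 1.08% ± 0.25 in the 40 numbered 49 to 91. What the cell numbers stand for is not stated. On the deposited log2(TPM + 1) scale 77.6% of all tested genes were lower in the short-total cells, and 59 of the 77 canonical members were, by a median of -0.10 against -0.15 over all tested genes. The members ran from -0.37 (Rpl27) to 0.21 (Rpl17). With each cell divided by its own total, the median was -0.02 for the members against -0.12 over all tested genes, and the members ran from -0.33 (Rps12) to 0.29 (Rpl17).

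Of the 37 copies with a mean of 1 TPM or more, 16 had a difference between these sets of cells opposite in sign to that of their member, on the deposited scale. Gm12918, an intronless copy on chromosome 4 with the whole coding sequence of Rpl13, was detected in 15 of 21 short-total cells (median 13.03 TPM, 0 to 83.9) and in 16 of 87 full-total cells (median 0, 0 to 33.5). Its difference of 2.51 on the log2 scale was the highest of all 7227 tested genes. Rpl13 itself had a median of 239.6 TPM in short-total and 318 TPM in full-total cells, and the 2 had a Spearman correlation of -0.41 over all cells. Gm10443 (0.90) and Gm10288 (0.92) were also higher in short-total cells, while their members Rps28 (-0.22) and Rpl11 (-0.11) were not. Rpl38-ps2 was lower, detected in 11 of 21 short-total cells (median 1.01 TPM) and in 65 of 87 full-total cells (median 23.7 TPM). How reads were divided between a member and its copy in each set was not tested.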

How the data were processed

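Each sample was 1 acinar cell. The deposited values, 1 per Ensembl gene with 2 decimals, are TPM, as judged from their sum of about 1000000 in most cells. The submitters' processing notes name, without saying what each did, STAR 2.4.2a, RSEM 1.2.21 and edgeR, and mm10 as the build. Filters, and how reads shared between copies were divided, are not given in the sources used here, and TPM keep no read depth.

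Columns were matched to cells by cell number, and symbols, coordinates and coding sequences came from GENCODE M21 (44548 rows matched). The coding sequence of a gene was that of its principal transcript, or else the longest. Copies were found with blastn 2.17.0, also against other coding isoforms of similar length. A gene was detected at 1 TPM. Correlations used log2(TPM + 1) and no test was made. The trend was a lowess fit (span 0.3) of squared CV on mean, on log10 scales, over genes detected in at least 11 cells. The functions were tested on simulated data. Python 3.11.15, pandas 2.3.3 and statsmodels 0.14.6 were used.

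Genes described in full were the 8 highest and 8 lowest canonical means, the 5 largest and 5 smallest SDs of the ratio to the median member, the 5 lowest and 3 highest correlations with other members, every paralog, and the 15 highest and 5 lowest correlated non-members. Some of these are not reported here. Rps24, Rpl31 and other members named for sequence, place in the ribosome, length, short-total cells or copies (Gm12918, Gm10443, Gm10288, Rpl38-ps2), and the cell cycle genes, were picked with their values known. Members and gene lists were chosen with earlier results of these data known. Alternatives covered scaling, cells, filter, trend, pseudocount, correlation, detection level, copies and the summary of a subunit.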

Additional observations from a re-analysis of the deposited data

How the results depend on the processing

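The share of TPM stayed within 1 SD under 6 of 7 alternatives and moved to 10.3% with the enzymes left out of the total. Members detected in every cell ranged from 74 to 76. Members called variable numbered 3 with no filter, with a span of 0.5 and in short-total cells alone (Rps12, Rps27 and Rps28 each time), 4 at 1.5 times the trend (with Rps15a), 2 with median-of-ratios size factors (Rps12 and Rps27) and 2 with all members of the rule (Rps12 and Rps27rt). With copies added the 1 call was Rps28. Median co-variation ran from 0.55 (median-of-ratios) to 0.65 (enzymes left out). The large-to-small log2 ratio was -0.27 for the median member, -0.23 for mean log2 values and -0.14 for medians with copies added, an alternative chosen after seeing the data, since medians do not grow with the number of genes. Genes correlated at 0.5 were 0.546% with no filter, where 19969 genes were tested, and 4.55% in the 21 short-total cells. Fewer cells give wider correlations, and whether this accounts for the 4.55% was not tested. The short-to-full difference was -0.017 with each cell divided by its own total, also added later. Adding copies moved the mean of 17 of 86 members by over 1 SD. Own totals, full-total cells, short-total cells and leaving out cells 31 and 40 did so for none, and single members were not recomputed without the enzymes. Without cells 31 and 40 the share was 1.12% and the count called variable 1. No paired analysis was possible because the study has 1 group. Leaving out replicates was not run, since the group has none. With depth unknown, a value near 0 shows only that a gene is listed there.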
